A study of Danio rerio with 10 samples.

Results

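The genes described are 10 heart muscle genes of the zebrafish, chosen by symbol. They comprise the myosin genes *myl7*, *myh6*, *vmhc* and *cmlc1* and the troponin genes *tnnt2a*, *tnni1b* and *tnnc1a*. The others are the natriuretic peptide genes *nppa* and *nppb* and the transcription factor gene *tbx5a*. Of these 10 symbols, 9 name a row among the 32520 genes of the deposited table, and all 9 passed the filter on low values that left 21563 genes for testing. No row carries the symbol *vmhc*. RefSeq lists *vmhc* as a synonym of *myh7*, and the row *myh7* (ENSDARG00000079564) is therefore shown beside the members but is not counted among them.

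Larvae of the AB strain were exposed, beginning within hours of fertilization, to a mixture of persistent organic pollutants (POPs). The mixture was composed after the levels measured in human blood in Scandinavia. Control larvae received 0.1% DMSO, the solvent that all groups shared, POP75× larvae the mixture at 75 times the blood level, and POP125× larvae the mixture at 125 times that level. RNA of whole larvae at 5 dpf (days post fertilization) was sequenced from 3 control, 3 POP75× and 4 POP125× libraries, each from a pool of larvae. The submitters describe the treatments as repeated in independent experiments. In a whole larva the heart is a small part of the tissue, and fewer heart cells cannot be told apart from less RNA per heart cell.

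The vertebrate heart contracts through sarcomeres, in which myosin heavy and light chains pull on actin and the troponin complex couples the pull to calcium. The zebrafish heart has a single atrium and a single ventricle, and *myh6* (atrium) and *vmhc*/*myh7* (ventricle) are the usual markers of its chambers, while *myl7* marks both. The natriuretic peptides are hormones secreted by heart muscle cells, and their transcripts are widely used as readouts of stretch and strain of the heart wall.

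The libraries held 13659239 to 20267255 reads on genes, of which 1082 to 1716 came from the 9 members. Clustering of all tested genes, with the number of sets fixed at 3, put the libraries into sets that cut across the treatments. Of the controls, replicate 1 fell in set 1 and replicates 2 and 4 in set 2. Of the POP75× libraries, replicate 4 fell in set 1, replicate 3 in set 2 and replicate 2 in set 3. Of the POP125× libraries, replicates 3 and 4 fell in set 1 and replicates 1 and 2 in set 3. Neither set 2 nor set 3 contained both control and POP125× libraries, so that only set 1 allows this comparison within a set. The sets are a description of the data and no label accounts for them. They were formed from the same values that are tested, so that a fit with the set as a term is not independent support.

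None of the heart muscle transcripts passed the test at either dose in the limma fit of all 10 libraries. At POP125× those of the natriuretic peptides were the members with the largest differences, higher than in control larvae. At POP75× the ranges of *nppa* and its controls overlapped. With limma on log2(normalized count + 1) and Benjamini-Hochberg adjustment, 0 of the 9 members were DEGs (differentially expressed genes, adjusted p under 0.05) at POP125× against control, where 1.7% of all tested genes (366) were. Without adjustment, p was under 0.05 for 2 members, *nppa* and *nppb*, against 21.0% of all tested genes (4518). The median log2 fold change was 0.18 over the 9 members and -0.01 over all tested genes.

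The *nppa* gene (ENSDARG00000052960), which encodes atrial natriuretic peptide, had 205, 264, 169 and 176 normalized counts in POP125× larvae, against 141, 75.3 and 63.0 in control larvae. All 4 POP125× libraries lay above all 3 control libraries. The means were 204 ± 43.1 (SD, n = 4) in POP125× and 93.2 ± 42.1 (SD, n = 3) in control larvae, a log2 fold change of 1.19 (SE 0.40, 95% confidence interval 0.31 to 2.06, adjusted p = 0.140 with limma). The difference therefore did not pass the threshold, although its own interval did not include 0.

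The *nppb* gene (ENSDARG00000052958), which encodes B-type natriuretic peptide and lies next to *nppa* in the genome, had 31.5, 54.7, 22.4 and 34.9 normalized counts in POP125× larvae, against 15.3, 7.82 and 10.8 in control larvae. These rest on 24 to 45 reads per POP125× library and on 8 to 16 reads per control library, the lowest depth among the members. Again no POP125× library overlapped the controls. The log2 fold change was 1.56 (SE 0.41, 95% confidence interval 0.65 to 2.47, adjusted p = 0.0842 with limma), or 2.95-fold on this scale.

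Among all tested genes, 12.4% had every POP125× library above every control library and 11.6% had every one below. Of the 9 members, 2 were above in this sense (*nppa* and *nppb*) and 0 were below.

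**Figure D1:**
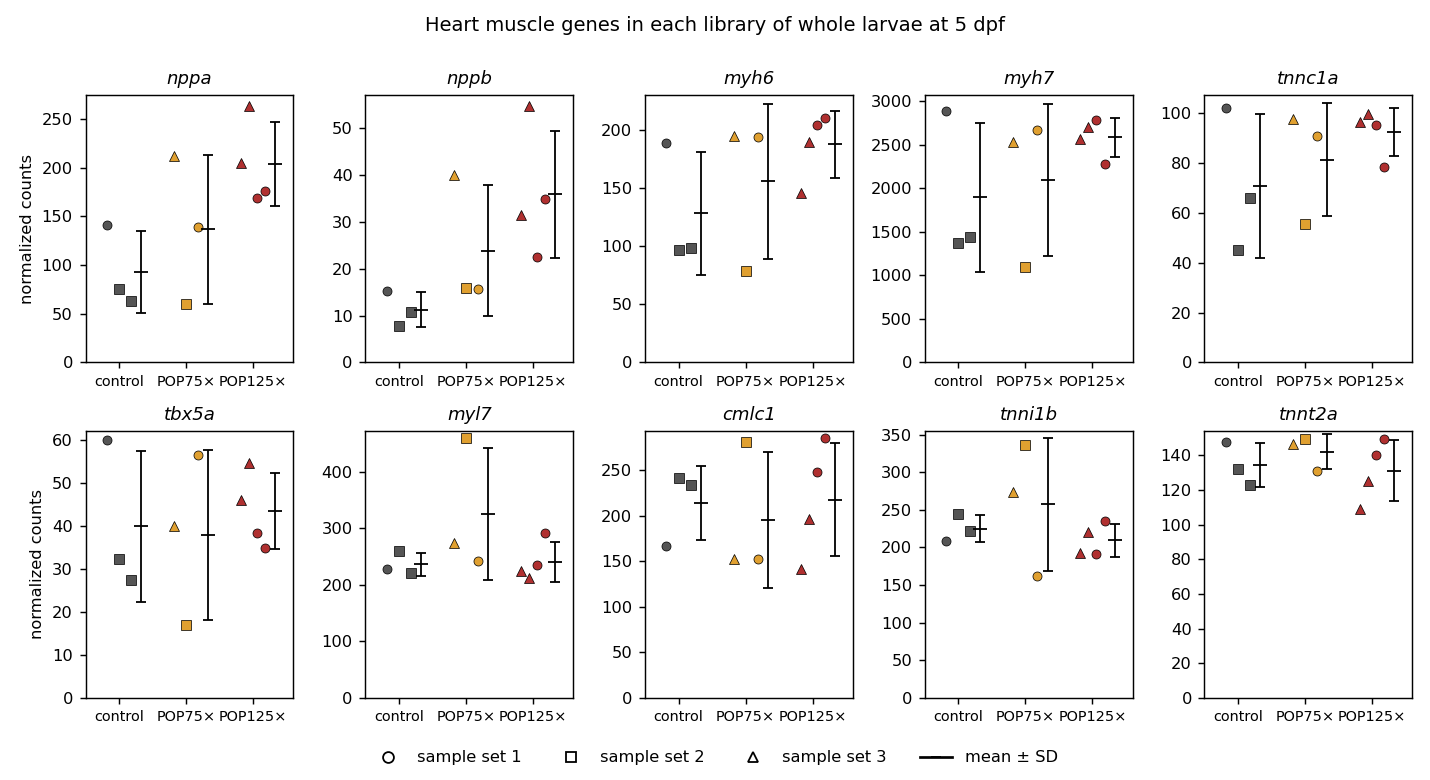
Normalized counts (vertical axis, from 0) of the 9 heart muscle genes and of *myh7* in every library, by treatment (horizontal axis). Marker shapes give the 3 sets of libraries, and the bar beside each group is the mean ± SD; *nppa* and *nppb* are the members whose 4 POP125× libraries all lie above the 3 controls, and the squares of set 2 are low for *nppa*, *myh6*, *myh7*, *tnnc1a* and *tbx5a*.

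The call for the natriuretic peptides depended on the fit. In limma with only the 2 groups compared, which called 7.11% of all tested genes, both passed (adjusted p = 0.0360 for *nppa* and 0.0346 for *nppb*). They also did in DESeq2 with only these groups (adjusted p = 0.00469 for *nppa* and 0.00679 for *nppb*), where 13.5% of all genes passed. In DESeq2 with all libraries, which called 7.3% of all genes, *nppb* passed (adjusted p = 0.0223) and *nppa* did not (adjusted p = 0.0669). In edgeR, with 1.32% called, neither did (adjusted p = 0.0972 for *nppb* and 0.160 for *nppa*). With the replicate number as a block in limma, where 1164 of 21563 genes passed, both did (adjusted p = 0.0421 for *nppa* and 0.0450 for *nppb*). The other 7 members were called in none of these fits.

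The size of the *nppa* difference depended on the sets. Set 2 includes the lowest 2 controls. The 3 libraries of set 3, which contains no control, had the highest 3 values of *nppa*, 264 and 205 normalized counts in POP125× and 213 in POP75×. Within set 1, *nppa* had 169 and 176 normalized counts in the POP125× libraries and 141 in the control library. With the set as a further term in limma, a fit that called 12.6% of all genes and 0 of the 9 members, its log2 fold change at POP125× was 0.17 (adjusted p = 0.574). Without the 3 libraries of set 2, which leaves control replicate 1 as the only control, it was 0.50. For *nppb*, the libraries of set 1 had 22.4 and 34.9 normalized counts at POP125× and 15.3 in the control. Its log2 fold change was 0.88 (adjusted p = 0.162) with the set as a term and 1.11 without set 2. Without the libraries of set 3 the log2 fold changes were 0.97 for *nppa* and 1.28 for *nppb*. All of these fits were chosen after seeing the data, and in each the 2 genes remained higher in POP125× larvae.

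In the 3 POP75× libraries, replicates 2, 3 and 4, *nppa* had 213, 59.7 and 139 normalized counts and *nppb* had 40.1, 16.0 and 15.6. The spread among them was wide, and for both genes replicate 2, the POP75× library of set 3, was the highest. All 3 POP75× libraries lay above the 3 controls for *nppb*, and the ranges overlapped for *nppa*. The log2 fold changes at POP75× against control were 0.92 for *nppb* (95% confidence interval -0.05 to 1.90, adjusted p = 0.860) and 0.46 for *nppa* (-0.47 to 1.39, adjusted p = 0.926). None of the 9 members was a DEG at this dose and neither was any other gene (0% of all tested). Without adjustment, p was under 0.05 for 1274 genes and for 0 members. DESeq2 called 119 genes with all libraries and 42 with only the 2 groups, and 0 members in either. All POP75× libraries were above all controls for 4.94% of the tested genes and below for 4.38%, and for 1 and 0 of the members. The 2 doses were compared with the same controls.

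Between the doses, *nppa* was 0.72 log2 units higher in POP125× than in POP75× larvae (95% confidence interval -0.15 to 1.60) and *nppb* 0.63 (-0.27 to 1.54), both with an adjusted p of 0.885. No member and no other gene was a DEG in this comparison (0%, with 9 and 21 genes called by DESeq2 with 2 groups and with all libraries), and no member had groups that did not overlap, against 2.95% of tested genes wholly higher and 2.75% wholly lower in POP125×.

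When the dose was taken as a number, *nppb* had a slope of 1.25 log2 units per 100 times the blood level (SE 0.32, adjusted p = 0.0568 with limma) and *nppa* of 0.94 (SE 0.31, adjusted p = 0.113). By this trend 0 of 9 members were called, against 2.64% of all tested genes. Slopes of the other 7 members were between -0.08 for *tnni1b* and 0.48 for *myh6*.

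**Figure D2:**
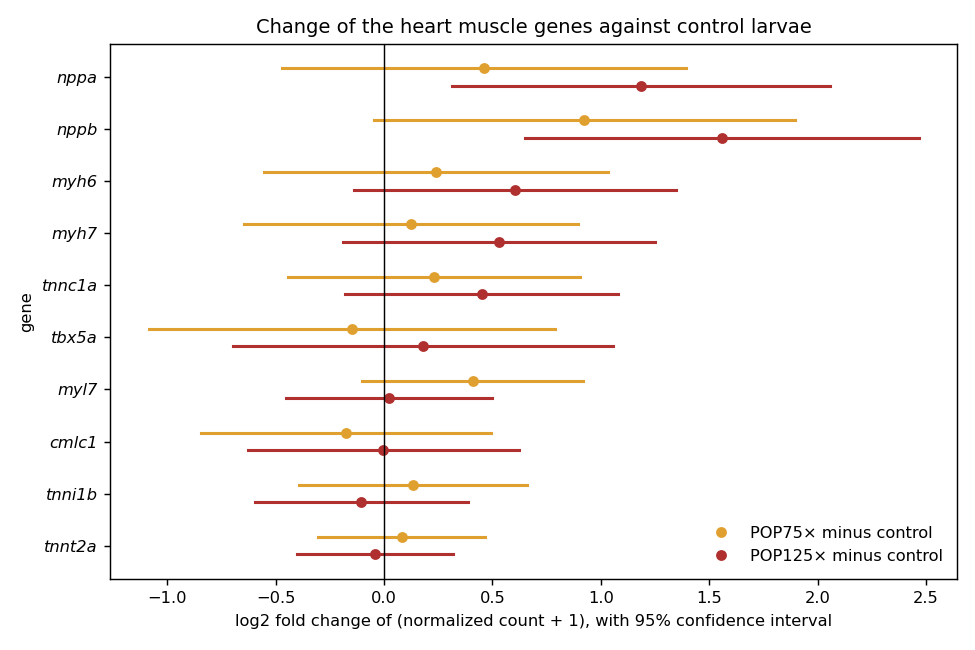
Log2 fold changes (horizontal axis) of each gene (vertical axis) at POP75× and POP125× against control larvae, with 95% confidence intervals from limma. The POP125× intervals of *nppa* (0.31 to 2.06) and *nppb* (0.65 to 2.47) do not include 0, and those of the other genes do.

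The chamber myosins were measured at different depths. *myh6* (ENSDARG00000090637), the atrial myosin heavy chain, had 146, 190, 204 and 210 normalized counts in POP125× larvae, against 189, 96.8 and 98.5 in control larvae. The POP125× values were close together, and the control values split into 1 high and 2 low libraries, so that the groups overlapped. The log2 fold change was 0.61 (95% confidence interval -0.14 to 1.35, adjusted p = 0.321).

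The *myh7* row, the ventricular myosin heavy chain, had 2572, 2707, 2789 and 2280 normalized counts in POP125× larvae, against 2888, 1370 and 1441 in control larvae. The highest of all 7 values was thus a control, and the lowest 2 were the other controls. The log2 fold change was 0.53 (95% confidence interval -0.19 to 1.25, adjusted p = 0.361). At POP75× the log2 fold changes were 0.24 for *myh6* and 0.13 for *myh7*, again with 1 low library, replicate 3, at 78.9 and 1093 normalized counts. Reads of *myh7* and of its neighbour and close relative *myh7l* may be divided between these rows by the counting.

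The ventricular and atrial heavy chains went up and down together over the libraries (Pearson correlation 0.94, a description over 10 libraries). The log2 ratio of *myh7* to *myh6* was 3.43 to 4.13 in POP125×, against 3.81 to 3.93 in control larvae, a difference of -0.08 (two-sided exact permutation test, p = 0.657). At POP75× it was 3.70 to 3.78, a difference from control larvae of -0.11 with no overlap (exact permutation p = 0.100, the smallest that 3 against 3 libraries allow). Transcript lengths enter these ratios, so that only their differences between libraries can be read.

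The regulatory light chain *myl7* (ENSDARG00000019096), expressed in both chambers, had 224, 213, 236 and 292 normalized counts in POP125× larvae, against 228, 260 and 221 in control larvae. The ranges overlapped widely and the log2 fold change was 0.02 (SE 0.22, 95% confidence interval -0.45 to 0.50). At POP75× it had 274, 460 and 243 normalized counts, with replicate 3 the highest of all 10 libraries, and a log2 fold change of 0.41 (adjusted p = 0.876).

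The other cardiac light chain, *cmlc1* (ENSDARG00000032976), had 142, 197, 248 and 285 normalized counts in POP125× larvae, against 167, 242 and 234 in control larvae. Its log2 fold change was -0.0038 (95% confidence interval -0.63 to 0.62), and the values within POP125× differed more than the means of the groups. At POP75× it had 153, 281 and 152 normalized counts, a log2 fold change of -0.17.

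The troponin genes encode the parts of the calcium switch of the thin filament. *tnnt2a* (ENSDARG00000020610), cardiac troponin T, which binds tropomyosin and is known from the *silent heart* mutant, had 109, 125, 140 and 149 normalized counts in POP125×, against 148, 132 and 123 in control larvae, with overlapping ranges. Its log2 fold change was -0.04 (95% confidence interval -0.40 to 0.32), the narrowest interval among the members. At POP75× it had 146, 149 and 131 normalized counts.

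*tnni1b* (ENSDARG00000052708), an inhibitory troponin I expressed in the zebrafish heart, had 192, 220, 191 and 236 normalized counts in POP125×, against 209, 244 and 222 in control larvae (log2 fold change -0.10, 95% confidence interval -0.60 to 0.39). At POP75× its libraries ranged from 162 in replicate 4 to 337 in replicate 3, which was again the highest of the 10.

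*tnnc1a* (ENSDARG00000011400), the calcium-binding troponin C of the heart, followed *myh6* and not the other troponins. It had 96.7, 99.7, 95.4 and 78.6 normalized counts in POP125×, against 102, 45.0 and 66.0 in control larvae, with the same 2 controls low. The log2 fold change was 0.45 (95% confidence interval -0.18 to 1.08, adjusted p = 0.374).

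*tbx5a* (ENSDARG00000024894), a T-box transcription factor of the heart and of the pectoral fin, had 46.2, 54.7, 38.3 and 34.9 normalized counts in POP125×, against 60.1, 32.3 and 27.6 in control larvae. The control libraries enclosed all POP125× values, and the log2 fold change was 0.18 (95% confidence interval -0.70 to 1.06). In POP75× larvae it had 40.1, 17.0 and 56.7 normalized counts.

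The confidence intervals give the differences compatible with the data in the fit with treatment as the only term. They take no account of the 3 sets. With the set as a term, the log2 fold changes of *cmlc1* (0.61) and *tbx5a* (-0.68) came close to the ends of their intervals. At POP125×, the upper bounds for *myl7*, *cmlc1*, *tnnt2a* and *tnni1b* were 0.50, 0.62, 0.32 and 0.39 log2 units and the lower bounds -0.45, -0.63, -0.40 and -0.60. For *myh6*, *tnnc1a* and *tbx5a* the upper bounds were wider, at 1.35, 1.08 and 1.06. On counts simulated gene by gene from the means and spread of the data, the fit called 7 of 50 genes raised 2-fold at POP125×. Of those raised 4-fold it called 46 of 50. The simulated libraries had no sets shared by many genes, so that these counts do not show what could be detected for the members.

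Over the 10 libraries the members followed 2 patterns, described here after seeing the values and without a test. *myh6*, *myh7*, *tnnc1a*, *nppa* and *tbx5a* had Pearson correlations of 0.74 to 0.94 with each other (10 pairs). They were low in control replicates 2 and 4 and in POP75× replicate 3, the libraries of set 2. *myl7*, *cmlc1*, *tnni1b* and *tnnt2a* had correlations of 0.41 to 0.78 (6 pairs) and were all above their mean in POP75× replicate 3. Between the 2 groups of genes the correlations ran from -0.77 to 0.15 (20 pairs). *nppb* had a correlation of 0.86 with *nppa*. All these values come from the same 10 libraries and share their size factors.

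**Figure D3:**
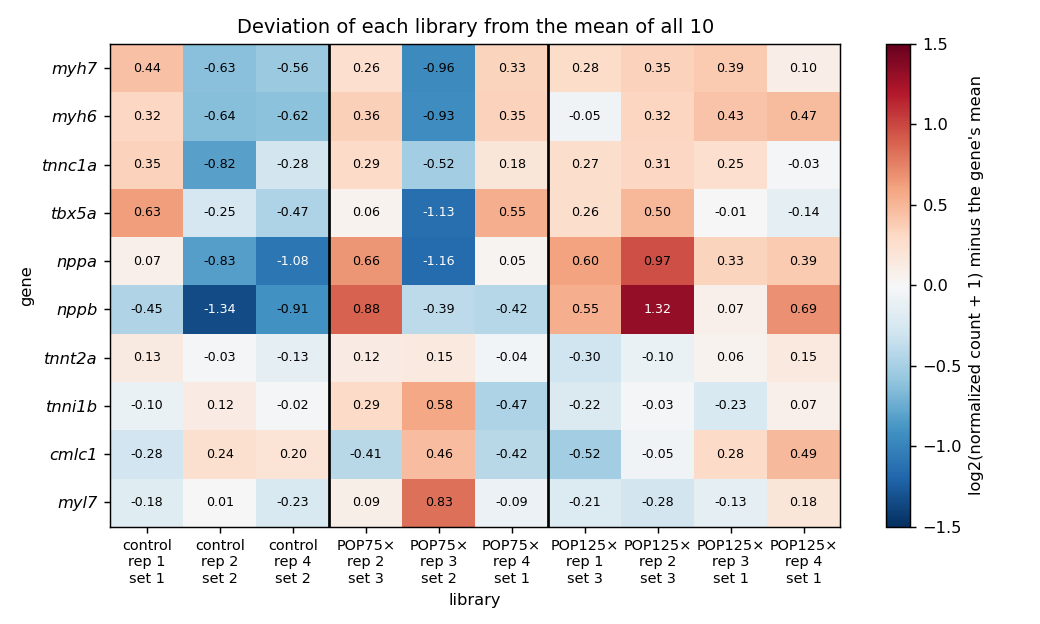
Deviation of log2(normalized count + 1) from the mean of all 10 libraries (colour and printed number) for each gene (rows) and library (columns, by treatment, with replicate and set). The upper 5 genes are below their mean in all 3 libraries of set 2, from -0.25 to -1.16, while *myl7*, *cmlc1* and *tnni1b* are highest or near their highest in POP75× replicate 3.

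Other measures differed in the same libraries. The titin gene *ttn.2*, which encodes the giant spring protein of the sarcomere, had 3438, 3208 and 2739 normalized counts in the libraries of set 2 and 12282 to 45959 in the other 7. Its reads may be shared with the tandem copy *ttn.1*. The 10 most abundant genes took 12.0%, 12.1% and 14.6% of the normalized counts in set 2 and 9.92% to 11.9% in the others. Of 8 erythrocyte markers, 7 passed the filter, *hbbe3* being at or near 0. Their sum was 6866 to 10807 normalized counts in POP125× and 8541 to 14233 in control larvae, and it was 13701, 14233 and 20484 in the libraries of set 2. The sum of 6 smooth muscle markers was 5347 to 7254 in POP125× and 7119 to 10633 in control larvae, with 9658 to 10633 in set 2. That of 6 endothelial markers was 2153 to 2409 in set 2 and 2628 to 3240 in the other libraries. The 23 circadian clock genes in the table summed to 17600 to 18799 normalized counts in set 3 and to 33561 to 42906 in the other libraries. Their part in the members' values was not tested.

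The sign of several small changes depended on set 2. With the set as a term, the log2 fold changes at POP125× against control were -0.09 for *myh6*, -0.25 for *myh7*, -0.14 for *tnnc1a* and -0.68 for *tbx5a*. None of these passed the threshold. Without the libraries of set 2 they were -0.03, -0.16, -0.15 and -0.48, with control replicate 1 as the only control. With treatment as the only term, leaving out each library in turn kept *myh6* (0.44 to 0.92), *myh7* (0.34 to 0.88) and *tnnc1a* (0.17 to 0.75) above 0. For *tbx5a* the range was -0.04 to 0.51. The signs thus differed between fits, and no direction can be given for these genes.

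To set the peptides against another heart muscle gene, the log2 ratio of each to *myl7* was taken in every library. Whether these transcripts came from the same cells cannot be seen in RNA of whole larvae. For *nppb* it was -2.79, -1.94, -3.34 and -3.03 in POP125×, against -3.82, -4.89 and -4.23 in control larvae, with no overlap. The means differed by 1.54 log2 units (two-sided exact permutation test, p = 0.0286, the smallest that 4 against 3 libraries allow; 0.229 after adjustment over the 8 ratio comparisons). For *nppa* the ratio was -0.13, 0.31, -0.48 and -0.73 in POP125×, against -0.69, -1.77 and -1.79 in control larvae, a difference of 1.16 (exact permutation p = 0.0571, adjusted p = 0.229). The 2 low controls, replicates 2 and 4, were those of set 2. Within set 1 the POP125× libraries (-0.48 and -0.73) lay on either side of the control (-0.69) for *nppa*, and for *nppb* the POP125× libraries (-3.34 and -3.03) lay above the control (-3.82). At POP75× the ratios differed from control by 0.05 for *nppa* (exact permutation p = 1.00) and 0.52 for *nppb* (exact permutation p = 0.5). The ratio of *tbx5a* to *myl7* differed by 0.16 at POP125× (exact permutation p = 0.771) and by -0.56 at POP75× (exact permutation p = 0.8). The choice of *myl7* bears on the size of the peptide differences. Its log2 fold change at POP125× was 0.02, against 0.61 for *myh6* and 0.53 for *myh7*. Its correlation with *nppa* over the 10 libraries was -0.47. Ratios of the peptides to *myh6* or *myh7* were not taken and would differ less between the groups.

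**Figure D4:**
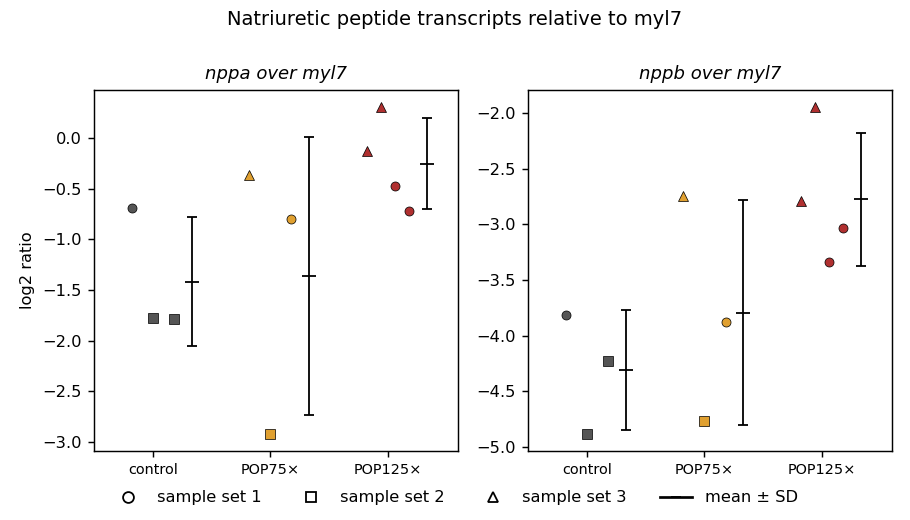
Log2 ratio of *nppa* (left) and *nppb* (right) to *myl7* (vertical axes) in each library, by treatment (horizontal axes), with mean ± SD and marker shapes for the sets. For *nppb* the POP125× libraries lie at -3.34 or above and the controls at -3.82 or below, and for *nppa* POP125× replicate 4 (-0.73) lies below control replicate 1 (-0.69).

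The rest of the natriuretic peptide system was measured through 7 genes, of which 0 were DEGs at POP125×, while 4 had a higher and 1 a lower level at an unadjusted p under 0.05, as 21.0% of all tested genes did in either direction. The median log2 fold change was 0.66, against -0.01 over all tested genes. The peptide gene *nppal* had 57.8, 76.6, 77.6 and 90.8 normalized counts in POP125×, against 37.2, 53.8 and 38.4 in control larvae, without overlap (log2 fold change 0.80, adjusted p = 0.114). The C-type peptide gene *nppc* had 98.8, 111, 136 and 116 normalized counts in POP125×, against 37.2, 67.5 and 83.7 in control larvae, also without overlap (0.93, adjusted p = 0.144).

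Of the receptors, *npr3*, which clears the peptides, had 379, 428, 371 and 338 normalized counts in POP125×, against 301, 213 and 213 in control larvae (log2 fold change 0.66, adjusted p = 0.137), and the guanylyl cyclase receptor gene *npr1a* had a log2 fold change of 0.82 (adjusted p = 0.176). The related *npr1b* ran the other way with -0.48 (adjusted p = 0.212). *npr2*, the receptor of the C-type peptide, was at -0.05 and *corin*, whose protease activates the atrial peptide, at 0.01. With the set as a term, where 12.6% of all genes passed, *nppc* and *nppal* did so too, which is not independent support. Their log2 fold changes were 1.34 (adjusted p = 0.00874) and 1.15 (adjusted p = 0.00972), while *npr3* and *npr1a* were at 0.16 and 0.08. In edgeR neither *nppc* nor *nppal* passed (adjusted p = 0.164 and 0.127).

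Of 29 other sarcomere genes expressed in the heart (*myh7* included), 1 rose at POP125× against control and 0 fell, where 1.7% of all tested genes were DEGs. This was *tnni4b.1* (ENSDARG00000092999), a troponin I gene, with 47.3, 48.6, 63.6 and 66.4 normalized counts in POP125×, against 9.54, 13.7 and 4.92 in control larvae. All POP125× libraries were above all controls, also within set 1, where 63.6 and 66.4 stood against 9.54. The log2 fold change was 2.55 (SE 0.39, adjusted p = 0.0145 with limma). The call was lost without control replicate 4 (adjusted p = 0.0766) or without any of POP125× replicates 2, 3 and 4 (adjusted p = 0.0505 to 0.0563). In POP75× larvae it had 63.4, 53.3 and 23.4 normalized counts (log2 fold change 2.18, adjusted p = 0.240).

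The neighbouring gene in name, *tnni4b.2*, had 688 to 1001 normalized counts in POP125×, against 455 to 537 in control larvae (log2 fold change 0.80, adjusted p = 0.0776), and reads of these similar genes may be divided uncertainly. The median of the 29 genes was 0.26. *myh7l*, a second ventricular-type heavy chain, was at 0.36, the myosin-binding protein gene *mybpc3* at -0.22 and *ttn.2* at 1.95 with an SE of 0.97, and 0 of these 3 passed. With the set as a term the signs of *ttn.2* and *myh7l* turned and both passed the threshold, at -0.68 (adjusted p = 0.0388) and -0.55 (adjusted p = 0.0313). Without the libraries of set 2, with control replicate 1 as the only control, they were at -0.06 and -0.41. No direction can therefore be given for them either.

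Among 17 tested genes of calcium handling and excitation, 1 rose and 0 fell at POP125×, again beside 1.7% of all tested genes. It was *atp2a2a* (ENSDARG00000029439), the calcium pump of the sarcoplasmic reticulum in heart and slow muscle, with 2626, 3196, 2796 and 2396 normalized counts in POP125× and 1012, 1532 and 1658 in control larvae (log2 fold change 1.00, SE 0.20, adjusted p = 0.0323 with limma). The groups did not overlap, and the adjusted p was 0.0525 to 0.115 when any of the 7 libraries was left out. The median of the list was 0.41. The ryanodine receptor gene *ryr2b*, the calcium release channel, was at 0.29 (adjusted p = 0.525).

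The muscle of the trunk expresses some of the same genes, and its markers were summed beside them. For slow skeletal muscle the sum of its 8 markers was 41142 to 47162 normalized counts in POP125×, against 33638 to 34632 in control larvae, with *tnni1a* near 0. Of 7 tested, 0 were DEGs, 4 were higher and 3 lower, and the median log2 fold change was 0.05. The sum therefore does not describe the markers as a set. Fast skeletal muscle, with 25 markers, summed to 1250912 to 1382956 in POP125×, against 1186521 to 1436350 in control larvae, with 0 of 25 called. In the libraries of set 2 this sum was 1436350, 1391401 and 1680922, above all other libraries. The part of these tissues in the levels of *atp2a2a*, of the troponin genes and of the myosin genes, *myh7* included, was not tested.

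Of 20 tested cardiac transcription factors 0 were DEGs at POP125×, 1 had a higher and 4 a lower level at an unadjusted p under 0.05 (21.0% of all genes did in either direction), and the median was -0.22. *hand2*, which is needed for the ventricle, had 157, 152, 190 and 175 normalized counts in POP125×, against 252, 272 and 226 in control larvae, without overlap (log2 fold change -0.57, adjusted p = 0.128). *gata4* was at 1.12 (adjusted p = 0.205), with control replicates 2 and 4 at 22.5 and 33.5 normalized counts and control replicate 1 at 69.7. *tbx20* was at -0.32. *nkx2.5*, the early cardiac homeobox gene, had 4.86 to 14.0 normalized counts in POP125× and 5.91 to 18.1 in control larvae, with a log2 fold change of -0.22 (SE 0.47). The RNA was of whole larvae, and the part of tissues outside the heart in the levels of these factors was not tested.

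Of 13 genes of the endocardium and valves 0 were called, with a median of 0.12, and *nfatc1*, a valve endocardium factor, was at -0.13. Of 5 epicardial genes 0 were called, with a median of -0.21, and the epicardial factor *tcf21* was at -0.60 (adjusted p = 0.332). Of 9 genes of cardiac stress and regeneration, with *gata4* counted again, 0 were called and the median was 0.53. Of the 9, 5 had a higher level at an unadjusted p under 0.05 (21.0% of all genes did in either direction). Among these, the stretch-responsive gene *ankrd1a* had 88.3, 268, 597 and 531 normalized counts in POP125×, against 76.3, 110 and 95.5 in control larvae (log2 fold change 1.65, adjusted p = 0.143), with 3 libraries above the controls and replicate 1 among them. Its relative *ankrd1b* had a log2 fold change of 0.85 (adjusted p = 0.0749), without overlap. Both passed in DESeq2 with all libraries (adjusted p = 0.00519 for *ankrd1a* and 0.00673 for *ankrd1b*), where 7.3% of all genes passed. They also did in limma with the set as a term, at 2.16 (adjusted p = 0.00604) and 1.09 (adjusted p = 0.000349), where 12.6% did. That fit is not independent support, since the sets were formed from the same values. In edgeR, with 1.32% called, neither passed (adjusted p = 0.0975 for *ankrd1a* and 0.0783 for *ankrd1b*). At POP75× limma called 0% of all tested genes, so that none in these lists could be called. For these lists and the natriuretic peptide system, the part of tissues outside the heart was not tested.

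**Figure D5:**
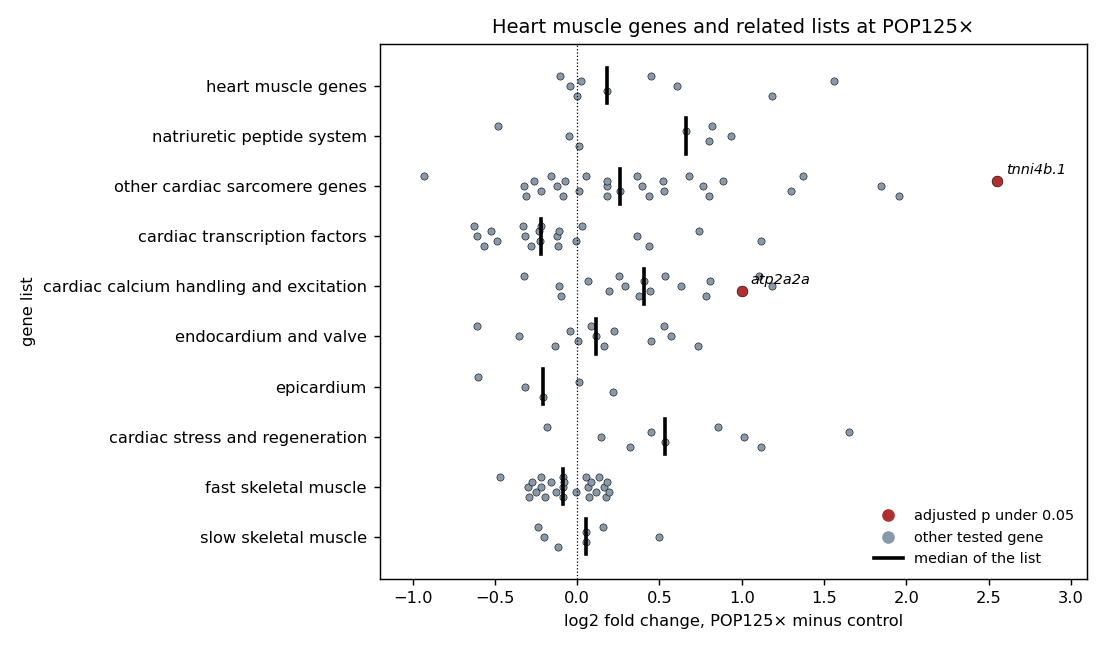
Log2 fold changes at POP125× against control (horizontal axis) of the 9 heart muscle genes and of the tested genes of 9 related lists (vertical axis, 1 point a gene in each list, bars at the medians). *gata4* and *tnnc1b* each appear in more than 1 list. Red points are the genes with an adjusted p under 0.05, *tnni4b.1* (2.55) and *atp2a2a* (1.00); the natriuretic peptide system has the highest median (0.66) of the lists shown.

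The genes whose pattern over the 10 libraries was most like that of the members were taken from all genes with a mean of at least 100 normalized counts (13984), by Pearson correlation of the log2 values. For *nppa* they were *sema4ba* (0.990), *npr3* (0.990) and *alpk2* (0.989), and for *nppb* *calcoco2* (0.974), *rhov* (0.973) and *irf9* (0.967). For *myh6* they were *plxdc2* (0.981), *brox* (0.977) and *xirp2a* (0.976), for *myh7* FO818704.2 (0.991), *crb2a* (0.990) and *slc27a4* (0.989), and for *myl7* *ndufb5* (0.971), *anxa1a* (0.964) and *gstp1* (0.961). With 10 libraries in 3 sets, many genes reach such values, and no relation beyond the likeness is meant.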

How the data were processed

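RNA of pooled whole larvae was sequenced by the authors as single-end reads of stranded mRNA libraries, which an nf-core workflow with its defaults mapped to GRCz11 and counted. DESeq2 was the authors' test, as the methods and the submitters' processing notes state. The deposited signal is a normalized count: the reads of a gene divided by the size factor of the library. Of the values above 0, 100% in each library were whole multiples (within 0.01 reads) of its smallest value, and these multiples were used as recovered reads. The authors' own comparison tables hold fold changes and p-values and were not used.

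Genes reaching 10 normalized counts in 3 or more libraries were fitted with limma 3.58.1 (R 4.3.3) on log2(normalized count + 1), with all 10 libraries, treatment as the term of the model and a trend of the variance with intensity. Adjustment was by Benjamini-Hochberg over all 21563 genes. A fold change on this scale understates the change of low genes. The fit was tested on simulated data. Alternatives were DESeq2 1.42.0 and edgeR 4.0.16 on recovered reads, other scalings, pseudocounts and filters, a required fold change over 1.5, the replicate number as a block, and each library left out. At POP125× against control limma called 366 genes and, on the recovered reads, DESeq2 called 1570 and edgeR 285.

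Named genes are the members, the genes of each list called at POP125× (up to 5), 12 further genes (*nkx2.5*, *gata4*, *hand2*, *tbx20*, *atp2a2a*, *ryr2b*, *vmhcl* as *myh7l*, *mybpc3*, *ttn.2*, *tcf21*, *nfatc1*, *ankrd1a*), and the 3 most correlated genes of 5 of them. The other genes of the natriuretic peptide system and *tnni4b.2*, *ttn.1* and *ankrd1b* were added after their values were seen. Members, lists and tests were chosen with earlier results of these data known. P-values measure the spread between these libraries only. Coordinates are not given, since the reference annotation was of another assembly.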

Additional observations from a re-analysis of the deposited data

How the results depend on the processing

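The limits of these results are the 3 sets of libraries, which cut across the treatments, and the few reads of *nppb*. The number of members called at POP125× against control was 0 as reported (1.7% of all tested genes) and 1 with DESeq2 on all libraries (7.3%). It was 2 with DESeq2 on 2 groups (13.5%), with limma on 2 groups (7.11%) and with the replicate block (1164 of 21563 genes). For the dose trend it was 0 as reported (2.64%) and 2 with DESeq2 (1821 genes called) and with the replicate block (2212 of 21563). At POP75× against control and at POP125× against POP75× it was 0 under every alternative run. When each library was left out in turn, it was 0 at POP125× and at POP75× against control and between the doses. For the dose trend it was then 0 to 2. It was 2 without control replicate 1 and 2 without POP75× replicate 3, where 1204 and 1990 of 21563 genes were called. The cause of these changes was not tested.

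The number of all genes called at POP125× was 366 as reported, 1570 with DESeq2 on all libraries, 2883 with DESeq2 on 2 groups, 1534 with limma on 2 groups, 188 with total-count scaling, 1164 with the replicate block, 2707 with the set as a term, 18 without set 2 and 120 without set 3, and 38 to 473 when each library was left out. At POP75× it was 0 as reported, 119 and 42 with the DESeq2 fits, 1008 with the set as a term, 1 without set 3, and 0 to 5 with each library left out. Between the doses it was 0 as reported, 21 and 9 with the DESeq2 fits, 1 with no filter, 1 without the trend of limma, 61 with the set as a term, and 0 to 2 with each library left out. For the dose trend it was 569 as reported, 1821 with DESeq2, 363 with total-count scaling, 2212 with the replicate block, 2295 with the set as a term, 163 without set 2, 174 without set 3, and 67 to 1990 with each library left out.

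Directions turned for these log2 fold changes at POP125×. For *cmlc1* the values were 0.027 with both DESeq2 fits, 0.023 with edgeR, 0.069 with total-count scaling, 0.61 with the set as a term, 0.33 without set 2 and 0.33 without set 3. With total-count scaling *tnnt2a* was at 0.030, and without set 3 it was at 0.11. With the set as a term the values were -0.087 for *myh6*, 0.12 for *tnni1b*, -0.14 for *tnnc1a*, -0.68 for *tbx5a*, -0.25 for *myh7*, -0.18 for *ryr2b*, -0.55 for *myh7l*, 0.12 for *mybpc3*, -0.68 for *ttn.2* and 0.18 for *nfatc1*. Without set 2 only control replicate 1 was left as a control. The values were then -0.025 for *myh6*, -0.15 for *tnnc1a*, -0.48 for *tbx5a*, -0.16 for *myh7*, -0.41 for *myh7l* and -0.059 for *ttn.2*. Without set 3 they were -0.043 for *tbx5a*, 0.28 for *nkx2.5* and 0.23 for *nfatc1*. At POP75× the set as a term gave -0.093 for *myh6*, 0.17 for *cmlc1*, -0.078 for *tnnc1a*, -0.090 for *nppa* and -0.27 for *myh7*, the fit without set 2 gave -0.095 for *tnnt2a*, -0.11 for *tnnc1a* and -0.15 for *myh7*, and the fit without set 3 gave -0.064 for *myh7*.

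With the replicate block, *nppa* and *nppb* at POP125× had log2 fold changes of 1.42 (adjusted p = 0.0421) and 1.74 (adjusted p = 0.0450), *myl7* was at -0.073, and *tbx5a* at POP75× was at 0.23. Same-numbered libraries had correlations of -0.41 to 0.49 in their deviations from the group means, over 0.1 in 4 of 8 pairs. Differently numbered libraries had correlations of -0.66 to 0.56, over 0.1 in 9 of 25 pairs. The methods describe controls within each experiment, and the labels do not say whether equal numbers mark the same experiment. The numbers were not taken to pair the libraries, but these correlations cannot settle whether they do.

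Leaving out each library in turn gave log2 fold changes at POP125× of 0.95 to 1.53 for *nppa* (adjusted p = 0.0696 to 0.415) and 1.34 to 1.78 for *nppb* (adjusted p = 0.0668 to 0.334). Ranges that crossed 0 at POP125× were -0.073 to 0.093 for *myl7*, -0.17 to 0.19 for *cmlc1*, -0.11 to 0.042 for *tnnt2a*, -0.038 to 0.51 for *tbx5a*, -0.60 to 0.14 for *nkx2.5* and -0.29 to 0.0074 for *nfatc1*. At POP75× they were -0.090 to 0.43 for *tnni1b*, -0.054 to 0.53 for *tnnc1a*, -0.51 to 0.33 for *tbx5a* and -0.10 to 0.54 for *myh7*. The log2 ratio to *myl7* at POP125× ranged from 0.98 to 1.53 for *nppa*, 1.25 to 1.78 for *nppb*, and -0.022 to 0.51 for *tbx5a*, and at POP75× from -0.45 to 0.83, -0.010 to 1.00 and -1.10 to 0.20. That of *myh7* to *myh6* ranged from -0.19 to 0.044 at POP125× and -0.14 to -0.083 at POP75×. A call of the ratios cannot hold with a library left out, since the smallest exact permutation p is then 0.0667 or 0.100. *atp2a2a* lost its call without the trend of limma (adjusted p = 0.0556), and *atp2a2a* and *tnni4b.1* lost theirs without set 2 (adjusted p = 0.0517 and 0.119) and without set 3 (0.225 and 0.0698).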
